A study of Mus musculus with 18 samples.

Results

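Aminoacyl-tRNA synthetases are the enzymes that join each amino acid to its tRNA, and their genes were followed here through 18 mouse liver libraries. The members were the genes whose listed name is 1 capital letter followed by ars, with or without a final 1 or 2. Eprs, Farsa and Farsb were added. The rule uses names and no measured value, but it was chosen with earlier results of these data known. All 37 such genes were found among the 24539 genes listed. Of these, 17 have names that end in 2 and encode mitochondrial enzymes, and 20 have no final 2 and are called cytosolic below, although Gars and Kars each give both a cytosolic and a mitochondrial form of their enzyme.

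The livers came from wild type male C57BL/6 mice aged 16 weeks, which had been on their diet for 8 weeks from the age of 8 weeks. There were 3 livers on a high-fat diet with lycopene, a carotenoid of tomato (HFD+LYC), 3 on the high-fat diet alone (HFD) and 3 on normal chow (control). Each liver gave 2 libraries of poly(A) RNA, the first from ribosome-nascent chain complexes (RNC), pelleted through sucrose after lysis with cycloheximide, and the second from total RNA (mRNA). The amount of lycopene given is not stated in the sources used here, and no group received lycopene without the high-fat diet.

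Cells charge tRNAs for cytosolic translation and for translation inside mitochondria with largely separate sets of these enzymes, both encoded in the nucleus. In mammals, 8 of the cytosolic synthetase genes (Eprs, Iars, Lars, Mars, Qars, Rars, Kars and Dars) give the enzymes of the multi-synthetase complex, which is held together by 3 scaffold proteins, AIMP1, AIMP2 and EEF1E1. When tRNAs go uncharged, the kinase GCN2 (Eif2ak4) starts the integrated stress response, in which the transcription factor ATF4 raises many genes of amino acid supply, among them several cytosolic synthetase genes. The liver, which makes most plasma proteins, has a large demand for charged tRNAs.

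Promoter sequence is shown first, because the 2 compartments are known to be served by different transcription factors. RefSeq promoters (GRCm38.p6; 250 bases before to 50 after the start) were matched for 26 of the 37 genes, as 27 promoters. The letters TGATGNAA, the core of the C/EBP-ATF response element that ATF4 binds together with a C/EBP protein, were searched on both strands. They were in 5 of the 27 member promoters (18.5%), and in 3.97% of all 32851 promoters of the same length. All 5 genes (Aars, Gars, Iars, Tars and Yars) were cytosolic. How many of the 26 matched genes were of each compartment is not given here, so the compartments are not compared. A site of each is printed 5′ to 3′ on the strand of the gene, with the matching letters in capitals.
Aars: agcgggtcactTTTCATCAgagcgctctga
Gars: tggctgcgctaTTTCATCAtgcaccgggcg
Iars: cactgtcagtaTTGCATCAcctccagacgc
Tars: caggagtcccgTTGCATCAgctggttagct
Yars: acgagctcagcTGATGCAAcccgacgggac

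These stretches lie at chr8:111033840-111033869 (Aars, plus strand), chr6:55037960-55037989 (Gars, plus), chr13:49682126-49682155 (Iars, plus), chr15:11399655-11399684 (Tars, minus) and chr4:129189895-129189924 (Yars, plus). Counted from the RefSeq start at 0, the capitals begin at 9 in Aars, -30 in Gars, 7 in Iars, -15 in Tars and 3 in Yars. A match is a description of these letters and does not show that a factor binds there.

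The letters GCGCANGC, the core of the site of NRF1, a factor known for genes of mitochondrial function, were in 10 of the 27 member promoters (37.0%) and in 9.95% of all promoters. They were in both compartments, in the cytosolic Eprs, Farsb, Kars, Sars and Tars and in the mitochondrial Iars2, Mars2, Rars2, Vars2 and Wars2. The stretches of the 5 genes that recur most in the results below are shown, with the matching letters in capitals. Tars alone held both motifs, and its sites did not overlap.
Eprs: gacgtgtcgtaGCGTGCGCaccgactccgg
Farsb: ccccgcatgtgGCGCAGGCgcagtgtccac
Kars: cccagcactgcGCCTGCGCagcgagagtcc
Mars2: accgtccagctGCGCACGCgccctttcccg
Wars2: ccagaggacagGCGCATGCgtagtaagcac

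They lie at chr1:185363036-185363065 (Eprs, plus strand), chr1:78488851-78488880 (Farsb, minus), chr8:112011383-112011412 (Kars, minus), chr1:55237168-55237197 (Mars2, plus) and chr3:99141015-99141044 (Wars2, plus). The capitals begin at 3 in Eprs, 28 in Farsb, -47 in Kars, 2 in Mars2 and -64 in Wars2.

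The libraries held between 4533729 and 12742436 reads assigned to genes, so that 3 reads corresponded to 0.235 to 0.662 CPM (reads scaled to a common library total). The 3 HFD+LYC RNC libraries stood apart from the other 6 RNC libraries. They had reads for 8940 to 10037 genes, against 13324 to 14450 in the HFD and control RNC libraries, and only 70 to 112 genes with exactly 1 read, against 614 to 861. The second HFD+LYC mRNA library also had few genes with exactly 1 read (189, against 652 to 798 in the other 8 mRNA libraries). Among the synthetases, 27 to 33 of the 37 had a read in each HFD+LYC RNC library, against 36 or 37 in every other RNC library and 37 in every mRNA library. Of the 29 synthetases at 10 CPM or more on average in the HFD and control RNC libraries, 6 (20.7%) had 0 reads in at least 1 HFD+LYC RNC library, as had 8.86% of all 5677 genes at that level. Iars, the isoleucyl enzyme of the complex, had 0, 0 and 67 reads there, where its mean HFD level would have given 64.5, 69.6 and 99.7. Nars2, the mitochondrial asparaginyl enzyme, had 94 and 79 reads in the first 2 libraries and 0 in the third, where the HFD level would have given 97.6. Every result on HFD+LYC RNC below rests on these 3 libraries, and what part their low gene detection had in the results was not tested. The labels name separate samples and do not say more about the mice, so the p-values measure the spread between these samples. In whole liver, fewer cells of a type and less RNA per cell cannot be told apart.

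Levels are given below as CPM after scaling by the trimmed mean of M-values (TMM), except for the sums of marker genes. Where genes are compared with each other, levels are per kilobase of the longest transcript listed (RPKM).

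In total RNA the cytosolic synthetases were more abundant than the mitochondrial ones. The median over the 20 cytosolic genes was 16.6 RPKM in HFD+LYC, 15.6 in HFD and 15.4 in control livers, and over the 17 mitochondrial genes 6.05, 6.95 and 7.36 RPKM in the same order. Aars, the alanyl enzyme, was the highest cytosolic gene in every diet, at 52.5 ± 11.7 RPKM in HFD+LYC, 51.6 ± 7.03 in HFD and 57.7 ± 9.73 in control livers (SD, n = 3 each). In control livers Tars (threonyl, 36.6 RPKM) and Nars (asparaginyl, 28.5 RPKM) followed, and Iars (4.14 RPKM), Lars (leucyl, 6.93 RPKM) and Farsb (the beta subunit of the phenylalanyl enzyme, 8.80 RPKM) were the lowest cytosolic genes. Among the mitochondrial genes, Lars2 stood far above the others in control livers at 113 ± 93.7 RPKM (SD, n = 3), with an SD close to its mean. Tars2 (16.6 RPKM) and Hars2 (14.4 RPKM) came next, with SDs of 3.74 and 7.13 that overlap. Mars2 (methionyl, 0.567 RPKM), Pars2 (prolyl, 0.919 RPKM) and Ears2 (glutamyl, 1.84 RPKM) were the lowest.

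**Figure D1:**
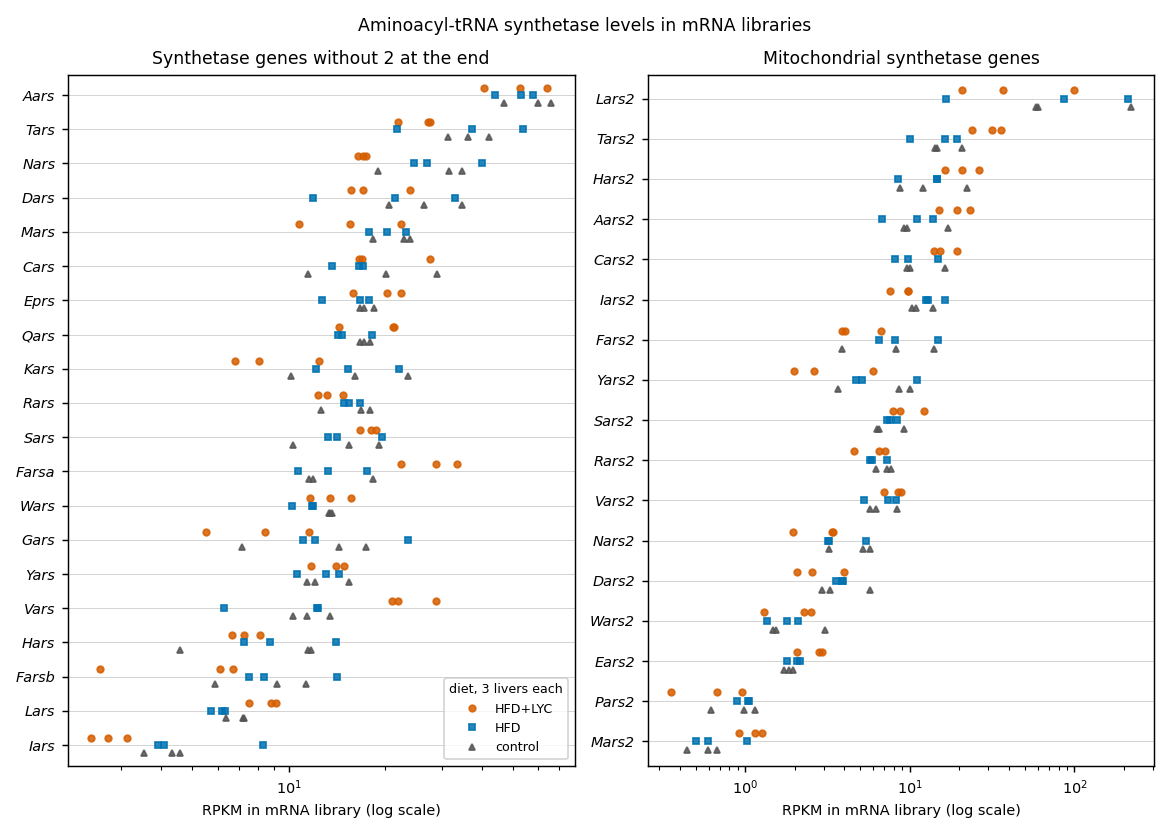
Level of each synthetase gene in total RNA, in RPKM on a log axis, with 1 point per library for HFD+LYC, HFD and control; cytosolic genes and mitochondrial genes have a panel each. Aars leads the cytosolic genes, Lars2 spreads most widely among the mitochondrial ones, and Vars and Farsa have their 3 HFD+LYC points to the right of all others.

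In the RNC libraries, which were scaled apart from the mRNA libraries so that levels here are not set against those above, the cytosolic genes were again above the mitochondrial ones. The cytosolic median was 6.20 RPKM in HFD+LYC, 9.31 in HFD and 9.96 in control livers, and the mitochondrial median 2.57, 3.11 and 3.47 RPKM. Aars was the highest cytosolic gene in HFD+LYC (28.6 ± 3.01 RPKM) and control livers (32.5 ± 3.93), while Dars, the aspartyl enzyme of the complex, was highest in HFD livers (25.7 ± 3.26 RPKM; SD, n = 3 each). Dars had 3.47 ± 0.756 RPKM in HFD+LYC and 27.2 ± 2.57 in control livers. The spread among replicates was wider under lycopene, with a median coefficient of variation over the 37 genes of 42.9% in HFD+LYC RNC, 20.1% in HFD RNC and 14.6% in control RNC. Among genes at 10 CPM or more this was not confined to the synthetases, whose median was 38.9% in HFD+LYC RNC against 43.3% for all such genes.

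**Figure D2:**
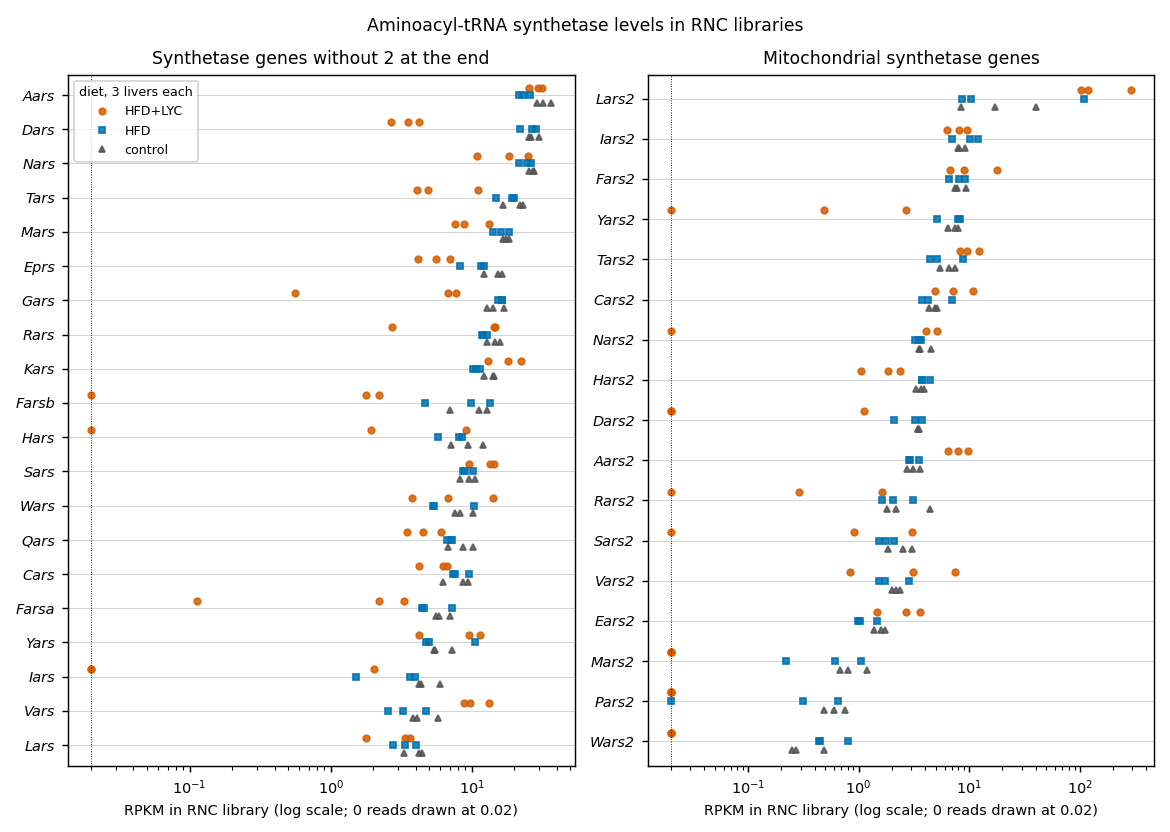
Level of each synthetase gene in ribosome-nascent chain complexes, in RPKM on a log axis, with 1 point per library for HFD+LYC, HFD and control; a library with 0 reads is drawn at the left edge. Dars has its 3 HFD+LYC points far to the left of the other 6, and Mars2, Pars2 and Wars2 have all 3 HFD+LYC points at the left edge.

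High-fat feeding alone changed no synthetase past the threshold. Against control, HFD livers had 0 of the 37 genes called in mRNA at an adjusted p under 0.05 (edgeR's quasi-likelihood test, adjusted over all genes), where 0.0158% of all 12664 genes tested were called, and 0 of 37 in RNC, where 0.00858% of 11660 were. At an unadjusted p under 0.05 there were 0 synthetases in mRNA (2.83% of all genes) and 1 in RNC (1.84% of all genes). DESeq2 and limma-voom also found 0 in mRNA and 1 in RNC at that unadjusted p. The synthetases were mostly a little lower in RNC, with 29 of 37 below 0, against 5686 of 11660 over all genes. Their median log2 change was -0.16, against 0.01 over all genes. Between RNC libraries of a group the median level of the members varied with an SD of 0.171 on the log2 scale. All members share these libraries. The 8 genes of the complex were all below 0 (median -0.27). Without the first HFD replicate 7 of these 8 were below 0.

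The gene with the smallest p in RNC was Aars. It had 96.6, 86.1 and 79.9 CPM in HFD RNC, against 119, 107 and 136 CPM in control RNC. All 3 HFD livers were below all 3 control livers, and the log2 change was -0.47 ± 0.20 (SE; unadjusted p = 0.0456, adjusted p = 1.00, edgeR). Iars, Kars (lysyl) and Rars (arginyl), which are all of the complex, also had every HFD RNC library below every control RNC library, so that 4 of 37 genes did not overlap in that direction (7.20% of all genes) and 0 in the other (6.97%). Eprs, which charges both glutamate and proline, had a log2 change of -0.45 ± 0.26 (adjusted p = 1.00, edgeR). On the higher side Lars2 (0.97 ± 0.97) and Wars2, the mitochondrial tryptophanyl enzyme (0.73 ± 0.73), had the smallest p, with SEs as large as the changes (edgeR, adjusted p = 1.00 each). The Lars2 value turned to -1.22 without the first HFD replicate.

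In mRNA the changes under HFD were smaller still, with a median of -0.07 on the log2 scale, against -0.01 over all genes. Wars, the cytosolic tryptophanyl enzyme, had 18.8, 22.0 and 21.8 CPM in HFD mRNA, against 25.2, 24.5 and 24.8 CPM in control mRNA (log2 change -0.25 ± 0.23, adjusted p = 1.00, edgeR). It and Lars were the 2 genes with every HFD library below every control library (3.46% of all genes), and 0 genes were higher without overlap (3.76%). The log2 changes of Cars (cysteinyl, -0.36 ± 0.36), Iars (0.39 ± 0.32) and Iars2 (0.25 ± 0.25) were about the size of their SEs. Iars was at -0.06 without the third HFD replicate. The RNC to mRNA ratio, tested as the interaction of diet and library kind over all 18 libraries, differed between HFD and control livers for 0 of 37 synthetases (0% of 12872 genes called). None had an unadjusted p under 0.05 (0.155% of all genes), and DESeq2 and limma-voom also found 0. The smallest p belonged to Ears2 (log2 -0.56), Iars (-1.06), Wars2 (0.94) and Cars (0.37).

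With lycopene added to the high-fat diet, no synthetase passed the threshold in total RNA in the test used here. The 2 genes with the smallest p in each direction are given first. Vars, the valyl enzyme, and Farsa, the alpha subunit of the phenylalanyl enzyme, were about 2-fold higher in HFD+LYC livers, while Iars and Nars were lower. Vars had 122, 92.5 and 89.0 CPM in HFD+LYC mRNA, against 51.8, 52.3 and 26.5 CPM in HFD mRNA and 48.3, 56.9 and 43.7 CPM in control mRNA. Farsa had 52.8, 61.2 and 41.1 CPM in HFD+LYC mRNA, against 32.1, 24.2 and 19.6 CPM in HFD and 21.8, 33.5 and 21.2 CPM in control mRNA. In both genes all 3 HFD+LYC livers were above all 6 others. The log2 difference from HFD was 1.22 ± 0.32 for Vars (2.32-fold, adjusted p = 0.0623) and 1.03 ± 0.29 for Farsa (2.04-fold, adjusted p = 0.0784; edgeR).

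Of the lower genes, Nars had 45.1, 43.6 and 46.2 CPM in HFD+LYC mRNA, against 71.6, 65.3 and 106 CPM in HFD mRNA (log2 -0.85 ± 0.31, adjusted p = 0.132, edgeR). Iars had 13.7, 11.9 and 10.6 CPM in HFD+LYC mRNA, against 17.2, 17.9 and 36.6 CPM in HFD mRNA (log2 -0.98 ± 0.32, adjusted p = 0.106, edgeR). In both genes the groups did not overlap. In all, 0 of the 37 synthetases were called against HFD in mRNA (2.91% of all genes were), and 9 had an unadjusted p under 0.05 (24.3% of all genes). DESeq2 called 3 (Farsa, Tars2 and Vars, all higher), and limma-voom called 0.

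Without overlap between HFD+LYC and HFD mRNA, 6 synthetases were higher (16.7% of all genes) and 5 lower (15.2%). The higher ones were Aars2, Farsa, Hars2, Lars, Tars2 and Vars and the lower ones Farsb, Iars, Iars2, Nars and Rars, shares that lie near the background. The median log2 difference over the 37 was 0.03, against -0.04 over all genes.

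Set against control, which shares the HFD+LYC livers with the comparison above, mRNA gave a similar picture. There 0 of 37 synthetases were called (5.54% of all genes) and 5 had an unadjusted p under 0.05 (23.9% of all genes). DESeq2 called Farsa and Vars, and limma-voom called 0, again without a share of all genes beside them. The log2 differences were 1.02 ± 0.30 for Farsa (adjusted p = 0.0672), 1.02 ± 0.32 for Vars (0.0823), -0.75 ± 0.31 for Nars (0.174) and -0.87 ± 0.37 for Kars (0.180; edgeR). Without overlap, 6 were higher (14.3% of all genes) and 4 lower (13.7%).

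The subunits of the phenylalanyl enzyme, Farsa and Farsb, which form the enzyme together, were compared after their values had been seen. Per transcript length, the Farsa to Farsb ratio in mRNA was 4.74, 13.04 and 3.35 in HFD+LYC livers, against 2.33, 1.59 and 0.755 in HFD and 1.05, 3.11 and 1.26 in control livers. The 3 HFD+LYC livers were thus above the other 6. The middle HFD+LYC value rests on 43 Farsb reads. In RNC the ratio could be taken in only 2 HFD+LYC livers, at 1.00 and 1.86, against 1.56, 0.331 and 0.462 in HFD and 0.786, 0.517 and 0.544 in control RNC. The first HFD+LYC RNC library had 1 Farsa read and 0 Farsb reads.

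In the RNC libraries 9 synthetases differed between HFD+LYC and HFD livers, 2 higher and 7 lower. Over all 11660 genes 26.8% were called, 9.34% higher and 17.4% lower, so that the share among synthetases (9 of 37) was near the background. Without overlap between the groups, 14 of 37 synthetases were lower (28.1% of all genes) and 3 higher (13.3%). The median log2 difference over the 37 was -0.43, against -0.29 over all genes.

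Dars showed the largest called change among the synthetases with reads in every group. It had 6.00, 7.86 and 9.37 CPM in HFD+LYC RNC, against 49.2, 59.2 and 63.4 CPM in HFD RNC and 67.4, 58.3 and 56.7 CPM in control RNC. All 3 HFD+LYC livers were far below the other 6, and the log2 difference from HFD was -2.88 ± 0.26 (7.35-fold lower, adjusted p = 0.000103, edgeR). Against control it was -2.96 ± 0.26 (adjusted p = 8.15e-05, edgeR). In total RNA the same gene had 38.0, 34.9 and 53.3 CPM in HFD+LYC livers, against 47.9, 26.5 and 73.6 CPM in HFD and 77.5, 45.9 and 59.2 CPM in control livers, groups that overlap.

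Within the complex Eprs fell too. It had 20.1, 27.2 and 33.7 CPM in HFD+LYC RNC, against 39.9, 56.2 and 59.1 CPM in HFD RNC and 58.9, 74.5 and 79.2 CPM in control RNC. The log2 difference was -0.94 ± 0.27 from HFD (adjusted p = 0.0280) and -1.39 ± 0.27 from control (adjusted p = 0.00543; edgeR). The call against HFD ended without control replicate 2, HFD replicate 2 or 3 or HFD+LYC replicate 1 (adjusted p = 0.0501 to 0.108). It also ended in a fit of the compared groups alone. Mars, the methionyl enzyme, had 26.1, 22.6 and 39.1 CPM in HFD+LYC RNC, against 54.2, 42.1 and 47.8 CPM in HFD RNC and 54.8, 51.4 and 49.5 CPM in control RNC. It was called only against control (log2 -0.82 ± 0.25, adjusted p = 0.0376, edgeR), a call that ended without any 1 control replicate, the third HFD replicate or the first or second HFD+LYC replicate (adjusted p = 0.0530 to 0.0996). That call also ended in a fit of the compared groups alone. Over the 8 genes of the complex, 2 fell against HFD (Dars and Eprs), 0 rose and 6 did not pass, with a median of -0.65, where 17.4% of all genes fell and their median was -0.29. DESeq2 also called Kars and Mars. Against control 3 fell, with Mars added (median -0.85). Kars stood on the other side, with 29.2, 40.1 and 49.4 CPM in HFD+LYC RNC, against 23.7, 25.6 and 22.7 CPM in HFD and 31.8, 27.3 and 31.4 CPM in control RNC. Its 3 HFD+LYC values were above all HFD values and overlapped those of control. It was not called by edgeR, but DESeq2 and limma-voom called it against HFD.

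Outside the complex Tars and Farsb fell, both with wide spread under lycopene. Tars had 12.8, 29.3 and 10.7 CPM in HFD+LYC RNC, against 39.4, 50.9 and 52.2 CPM in HFD and 44.1, 60.5 and 58.2 CPM in control RNC. Its log2 difference was -1.43 ± 0.38 from HFD (adjusted p = 0.0190) and -1.63 ± 0.38 from control (adjusted p = 0.0111; edgeR). Farsb had 0, 4.99 and 4.02 CPM in HFD+LYC RNC, against 10.6, 30.7 and 22.4 CPM in HFD and 16.0, 25.6 and 29.1 CPM in control RNC. Its log2 difference was -2.80 ± 0.85 from HFD (adjusted p = 0.0369) and -2.95 ± 0.86 from control (adjusted p = 0.0302; edgeR). The Farsb call against HFD ended without any 1 control replicate, HFD replicate 2 or 3 or the third HFD+LYC replicate (adjusted p = 0.0511 to 0.128). Its call against control ended without any 1 control replicate or HFD replicate 2 or 3 (adjusted p = 0.0515 to 0.0933). Both Farsb calls also ended in a fit of the compared groups alone. The Tars call against HFD ended without HFD replicate 2 or 3 (adjusted p = 0.0615 and 0.0674), and in a fit of the compared groups alone. Gars, the glycyl enzyme, shows how far 1 library can stand from its group: it had 18.4, 16.3 and 1.34 CPM in HFD+LYC RNC, against 38.9, 39.1 and 36.6 CPM in HFD RNC. Against HFD it was not called by edgeR with all libraries, but was called without HFD+LYC replicate 3 and by limma-voom.

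Vars and Aars2, the mitochondrial alanyl enzyme, rose. Vars had 41.2, 37.2 and 56.1 CPM in HFD+LYC RNC, against 20.2, 10.8 and 13.8 CPM in HFD and 24.5, 16.1 and 17.4 CPM in control RNC. All 3 HFD+LYC livers were above the other 6, by a log2 difference of 1.59 ± 0.33 from HFD (3.02-fold, adjusted p = 0.00598) and 1.21 ± 0.32 from control (adjusted p = 0.0195; edgeR). The call against control ended without control replicate 2 or 3 (adjusted p = 0.0914 and 0.0867). Aars2 had 21.7, 26.7 and 32.5 CPM in HFD+LYC RNC, against 11.9, 9.87 and 9.51 CPM in HFD and 11.99, 10.5 and 9.23 CPM in control RNC. The log2 difference was 1.37 ± 0.29 from HFD (adjusted p = 0.00700) and 1.35 ± 0.29 from control (adjusted p = 0.00766; edgeR). Its cytosolic counterpart Aars had 94.2, 109 and 116 CPM in HFD+LYC RNC and was not called in either comparison.

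The other 3 called genes were mitochondrial and had 0 reads in all 3 HFD+LYC RNC libraries. Wars2 had 3.49, 1.96 and 1.92 CPM in HFD RNC and 2.12, 1.19 and 1.09 CPM in control RNC. Mars2 had 0.635, 3.04 and 1.78 CPM in HFD RNC and 2.29, 3.42 and 1.94 CPM in control RNC. Pars2 had 0, 2.02 and 0.958 CPM in HFD RNC and 1.85, 1.51 and 2.33 CPM in control RNC. These are low levels. With 3 reads taken as the floor over the HFD+LYC group, the bound below HFD was 12.9-fold for Wars2, 12.4-fold for Mars2 and 7.31-fold for Pars2. Such bounds cover counting error only. The same libraries also gave 0 reads for better expressed synthetases, such as Nars2 in the third, so the bounds are not a minimum of the real change. At its mean HFD level Pars2 would have given only 4.80, 5.18 and 7.43 reads. Against control the bounds were 8.41, 14.9 and 11.1 for Wars2, Mars2 and Pars2. The adjusted p against HFD was 0.00482 for Wars2, 0.00852 for Mars2 and 0.0482 for Pars2, and against control 0.00670, 0.00686 and 0.0282 in the same order (edgeR). In total RNA all 3 genes had reads in every HFD+LYC liver, with 68, 81 and 47 reads for Wars2, 18, 27 and 27 reads for Mars2 and 20, 8 and 17 reads for Pars2. The Pars2 call against HFD ended without any 1 library except the first HFD replicate (adjusted p = 0.0623 to 0.133). It was also lost with limma-voom, without the filter on low counts and with the replicate number as a block. In all it was kept in 3 of 14 alternatives. Its call against control ended without any 1 control replicate, the third HFD or the third HFD+LYC replicate (adjusted p = 0.0508 to 0.0728). That call was also lost with the replicate number as a block.

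Against control as a whole, 10 synthetases differed in RNC (26.3% of all genes), 2 higher (9.23%) and 8 lower (17.1%), again near the background. Without overlap, 4 were higher (14.1%) and 17 lower (30.6%). The median log2 difference was -0.57, against -0.28 over all genes. These are the 9 genes called against HFD together with Mars, and the 2 comparisons share the HFD+LYC libraries. By compartment, 1 cytosolic gene rose and 4 fell against HFD, and 1 mitochondrial gene rose and 3 fell.

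**Figure D3:**
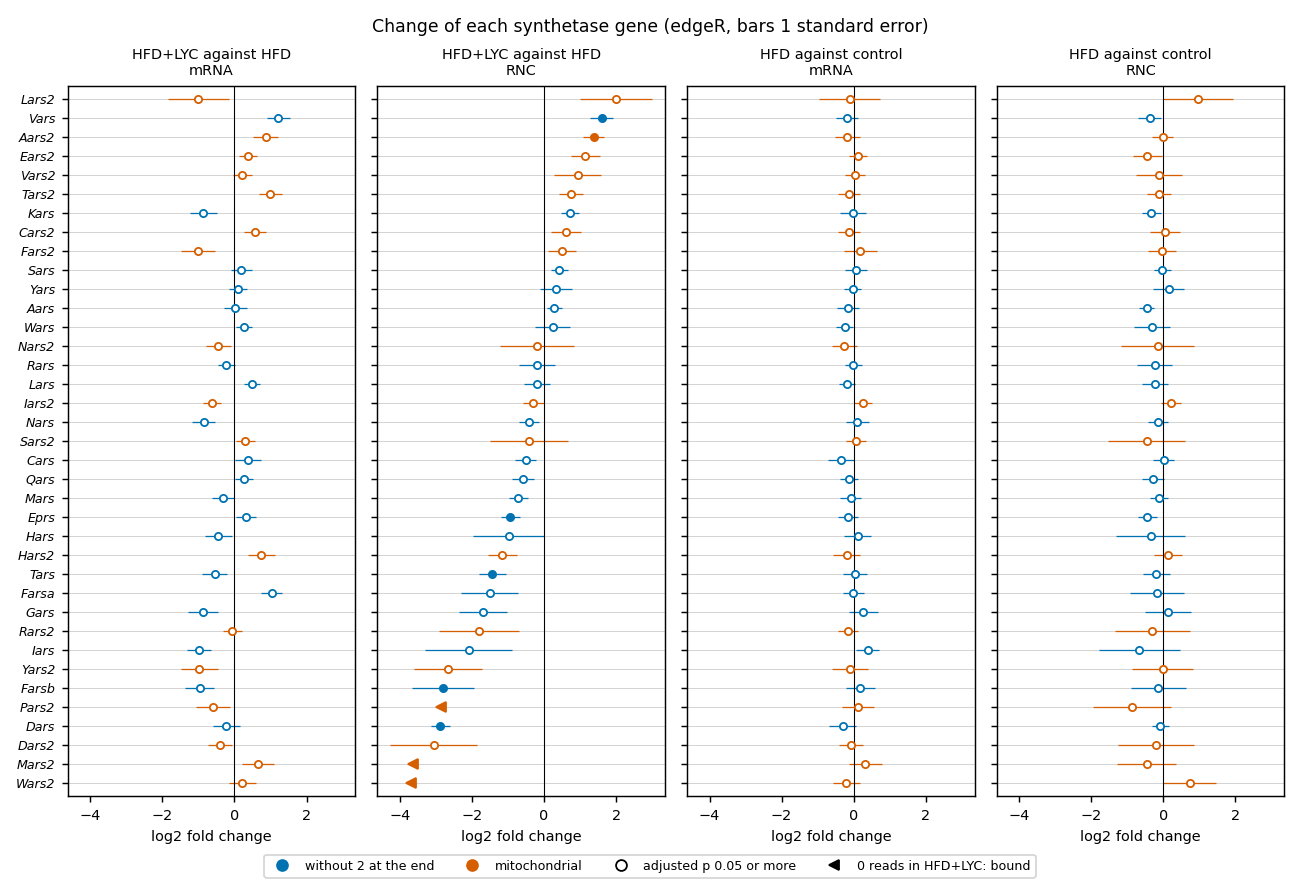
Log2 change of each synthetase gene in 4 panels: HFD+LYC against HFD in mRNA and in RNC, then HFD against control in mRNA and in RNC. Bars are 1 SE, filled points passed an adjusted p under 0.05 and triangles are bounds for genes with 0 reads in a group; filled points appear only in the panel for HFD+LYC against HFD in RNC.

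Whether a change in RNC differed from that in mRNA was tested as the interaction of diet and library kind. The change in the RNC to mRNA ratio between HFD+LYC and HFD livers passed the threshold for 8 of 37 synthetases, 1 higher and 7 lower. Over all 12872 genes 16.4% passed, 3.42% higher and 13% lower, so that the synthetases were not far from the background. With the liver as a block, 5 remained (Dars, Farsa, Hars2, Mars2 and Wars2, all lower), where 12.6% of all genes passed, a share near that of the synthetases.

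In the fit of all 18 libraries, whose scaling gives other CPM values than the fits above, Dars had 8.17, 10.3 and 12.8 CPM in HFD+LYC RNC and 27.7, 24.7 and 39.1 CPM in HFD+LYC mRNA. In HFD livers it had 70.1, 83.5 and 90.0 CPM in RNC and 34.5, 19.1 and 54.1 CPM in mRNA. RNC was thus below mRNA in every HFD+LYC liver and above it in every HFD liver, and the log2 difference of the ratios was -2.71 ± 0.49 (adjusted p = 0.00113, edgeR). Farsa had 0.282, 5.30 and 8.25 CPM in HFD+LYC RNC and 38.4, 43.3 and 30.2 CPM in HFD+LYC mRNA, against 19.0, 11.5 and 11.8 CPM in HFD RNC and 23.1, 17.5 and 14.4 CPM in HFD mRNA. Every HFD+LYC value was below every HFD value in RNC and above every HFD value in mRNA, and neither of these differences was called on its own by edgeR. The difference of the ratios was -2.59 ± 0.75 (adjusted p = 0.0244, edgeR), a call that ended without any 1 HFD replicate (adjusted p = 0.0735 to 0.0857). Hars2, the mitochondrial histidyl enzyme, had 4.51, 7.57 and 10.3 CPM in HFD+LYC RNC and 47.1, 58.5 and 37.5 CPM in HFD+LYC mRNA, against 19.7, 16.4 and 16.7 CPM in HFD RNC and 32.9, 33.0 and 19.5 CPM in HFD mRNA. Its difference was -1.97 ± 0.52 (adjusted p = 0.0141, edgeR; 0.0637 without HFD replicate 3). Hars2 overlaps Hars on the opposite strand, but the 2 gene spans meet only at their ends (chr18, Hars to 36783205 and Hars2 from 36783202). The labels do not say whether the counting used strand.

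Eprs had a difference of -1.32 ± 0.38 (adjusted p = 0.0221, edgeR), which was not called with the liver block (adjusted p = 0.0527), nor without HFD replicate 2 or 3 or HFD+LYC replicate 1 (0.0672 to 0.122). Kars was the 1 gene with a higher ratio. It had 39.7, 52.7 and 67.6 CPM in HFD+LYC RNC and 13.1, 10.7 and 20.3 CPM in HFD+LYC mRNA, against 33.7, 36.1 and 32.1 CPM in HFD RNC and 19.4, 24.6 and 36.1 CPM in HFD mRNA. The difference of 1.51 ± 0.49 (adjusted p = 0.0409, edgeR) was at an adjusted p of 0.0512 with the liver block. It was also lost without any 1 HFD replicate, control replicate 3 or HFD+LYC replicate 1 or 2 (adjusted p = 0.0502 to 0.204). The other genes were those with 0 reads in HFD+LYC RNC. At the floor of 3 reads, the bounds on the lower ratio were 20.2-fold for Mars2, 15.5-fold for Wars2 and 5.00-fold for Pars2. They cover counting error only. The adjusted p was 0.00130, 0.000859 and 0.0438 in the same order (edgeR), and 0.162 for Pars2 with the liver block. The Pars2 call ended without any 1 library pair other than HFD replicate 1 or HFD+LYC replicate 2 (adjusted p = 0.0707 to 0.149). With no filter on low counts Eprs, Kars and Pars2 were lost, and in a fit of the compared groups alone Farsa as well. Pars2 was also lost with limma-voom. Fars2, the mitochondrial phenylalanyl enzyme, had the next smallest p on the higher side (log2 1.45 ± 0.67, adjusted p = 0.156, edgeR).

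Against control, 7 synthetases had a lower ratio in HFD+LYC livers and 0 a higher one, where 14.8% of all genes passed (2.77% higher, 12% lower). They were Dars (log2 -2.49), Eprs (-1.61), Farsa (-2.74), Hars2 (-1.64), Mars2, Pars2 and Wars2. With the liver block Hars2 (adjusted p = 0.0625) and Pars2 (0.0767) were lost, and Lars2 was gained (log2 4.20, adjusted p = 0.0402, against 4.01 and 0.0641 without the block). The Hars2 call was kept in 3 of 15 alternatives: it was lost with DESeq2 (0.0541), limma-voom (0.0705) and scaling by relative log expression (0.0837), and with 6 of the replicates left out in turn (adjusted p = 0.0560 to 0.169; control 1 and 3, HFD 1 and 2, HFD+LYC 1 and 2). The Farsa call ended without control replicate 1 or 3 (0.0786 and 0.105), the Eprs call without control replicate 3 (0.0540), and the Pars2 call without any 1 control replicate or HFD+LYC replicate 1 (0.0503 to 0.0774). In a fit of the compared groups alone the Farsa call ended too.

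Set against total RNA within each diet, the cytosolic enzymes tended to lie higher in RNC in control and HFD livers. In control livers 7 of the 8 genes of the complex were above 0 (median log2 0.68), and the median over all 37 was 0.32, against -0.07 over all genes. For HFD livers the values were 7 of 8 (0.38), 0.13 and -0.05. Scaling by relative log expression moved the median of all genes to -0.21 in control and -0.18 in HFD livers, and the median of the complex to 0.54 and 0.27. Over all alternatives the median of the 37 synthetases ran from 0.18 to 0.53 in control and from 0.01 to 0.29 in HFD livers. Dars averaged 84.5 CPM in RNC and 43.7 CPM in mRNA of control livers (log2 0.95, adjusted p = 0.0964), and 81.2 CPM in RNC and 35.9 CPM in mRNA of HFD livers (1.18, 0.104; edgeR). Nars (0.86, adjusted p = 0.0985) was on the same side in control livers, and Aars2 (-0.96, 0.0865) and Wars2 (-1.63, 0.0884) on the other (edgeR). In HFD livers Mars (0.63), Aars2 (-0.79) and Hars2 (-0.70) followed Dars.

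In control livers 0 of 37 synthetases passed the threshold in this comparison (2.13% of all genes) and 8 had an unadjusted p under 0.05 (27.3%). In HFD livers 0 passed (0.101% of all genes) and 3 had an unadjusted p under 0.05 (20.8%). DESeq2 called 4 in control and 1 in HFD livers, and a fit of the 6 control libraries alone called 12, 8 higher and 4 lower. The shares of all genes that these alternatives called are not given here, so these counts have no background beside them.

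In HFD+LYC livers 17 synthetases differed between RNC and mRNA, 5 higher and 12 lower in RNC, where 43.4% of all genes did, 12.8% higher and 30.6% lower, again near the background. Those higher in RNC were Fars2 (log2 2.11, adjusted p = 0.00245), Kars (1.86, 0.000569), Lars2 (2.62, 0.0454), Nars (0.98, 0.0164) and Iars2, the mitochondrial isoleucyl enzyme (0.72, 0.0402; edgeR). With the liver block Iars2 was at an adjusted p of 0.0669, and it was called in 5 of 15 alternatives. The Lars2 call ended without any 1 control or HFD+LYC replicate (adjusted p = 0.0519 to 0.121) and with scaling by relative log expression (0.0539), and the Nars call without HFD+LYC replicate 2 or 3 (0.140 and 0.0526). Those lower in RNC were 6 cytosolic genes, Cars, Dars, Eprs, Farsa, Qars and Tars, and 6 mitochondrial ones, Hars2, Mars2, Pars2, Rars2, Sars2 and Wars2. Their log2 differences, for the genes with reads in both groups, lay between -0.91 for Eprs and -2.97 for Farsa. Sars2 was at an adjusted p of 0.0561 with the liver block, and was called in 5 of 15 alternatives. Without HFD+LYC replicate 1, Cars, Eprs and Tars were lost as well (0.0822, 0.1199 and 0.156). A fit of the 6 HFD+LYC libraries alone called 7, for which no share of all genes is given here.

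Lars2, the mitochondrial leucyl enzyme, had a spread unlike that of the other genes. It had 485, 1209 and 426 CPM in HFD+LYC RNC, against 453, 42.6 and 35.2 CPM in HFD RNC and 166, 70.4 and 34.6 CPM in control RNC. It took 35.9% to 63.2% of all synthetase reads in HFD+LYC RNC, 4.21% to 36.4% in HFD RNC and 3.42% to 16.0% in control RNC. In mRNA it had 151, 406 and 85.5 CPM in HFD+LYC, 356, 865 and 68.3 CPM in HFD and 240, 910 and 247 CPM in control livers. Rn45s, the precursor of ribosomal RNA, was set beside it after the values had been seen. Rn45s had 91.9, 252 and 143 CPM in HFD+LYC RNC, 146, 8.48 and 17.9 CPM in HFD RNC and 64.8, 19.6 and 22.1 CPM in control RNC. In the RNC libraries the highest Lars2 and the highest Rn45s value were in the same library, and so were those of the HFD and of the control group. In mRNA Rn45s had 1764, 1228 and 694 CPM in HFD+LYC, 467, 755 and 88.0 CPM in HFD and 312, 1030 and 350 CPM in control livers. The part of ribosomal RNA reads in the Lars2 values was not tested. Without Lars2, the synthetases took 0.0235% to 0.0811% of all reads in HFD+LYC RNC, against 0.0900% to 0.110% in HFD RNC and 0.0972% to 0.105% in control RNC.

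**Figure D4:**
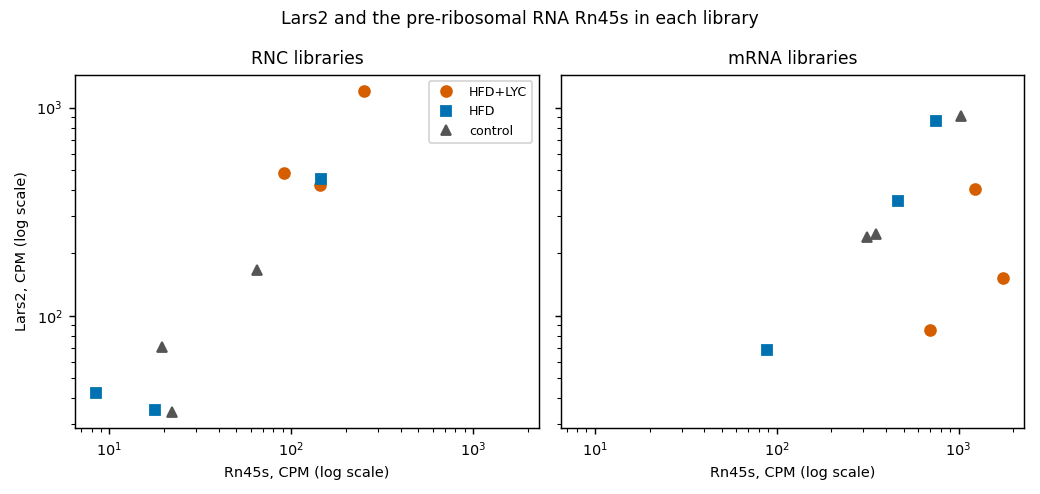
Lars2 against Rn45s in CPM on log axes, with 1 point per library, in an RNC panel and an mRNA panel. In the RNC panel HFD replicate 1 lies with the 3 HFD+LYC libraries at high Rn45s and high Lars2, while the order within a group is not the same for both genes; in the mRNA panel the HFD+LYC points lie at higher Rn45s for their Lars2 than the HFD and control points.

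The changes of the synthetases in RNC were set beside base composition. Across the 37 genes, the log2 difference between HFD+LYC and HFD RNC correlated with the GC content of the transcript. Pearson r was 0.548 with fitted values, against 0.305 across all genes with fitted values. With synthetases at 0 reads set at their bounds it was 0.612. By rank, with fitted values, the correlations were closer, at 0.56 for the synthetases and 0.407 for all genes (Spearman). Dars (41.2% GC) and Mars2 (38.8%) had the 2 lowest GC contents and were lower. Vars (60.9%) had the highest and Aars2 (60.0%) a value close to it, and both were higher. Sars2 (60.1%) lay between Vars and Aars2 and was not called. The other called genes (Eprs, Farsb, Pars2, Tars and Wars2), all lower, lay between 46.3% and 51.7%. In mRNA the Pearson correlation was 0.275 for the synthetases and 0.366 for all genes. In control livers the RNC to mRNA difference ran the other way, with r = -0.372 for the synthetases and -0.136 for all genes. These are descriptions across genes that share the same libraries, and the part of base composition in the changes was not tested.

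**Figure D5:**
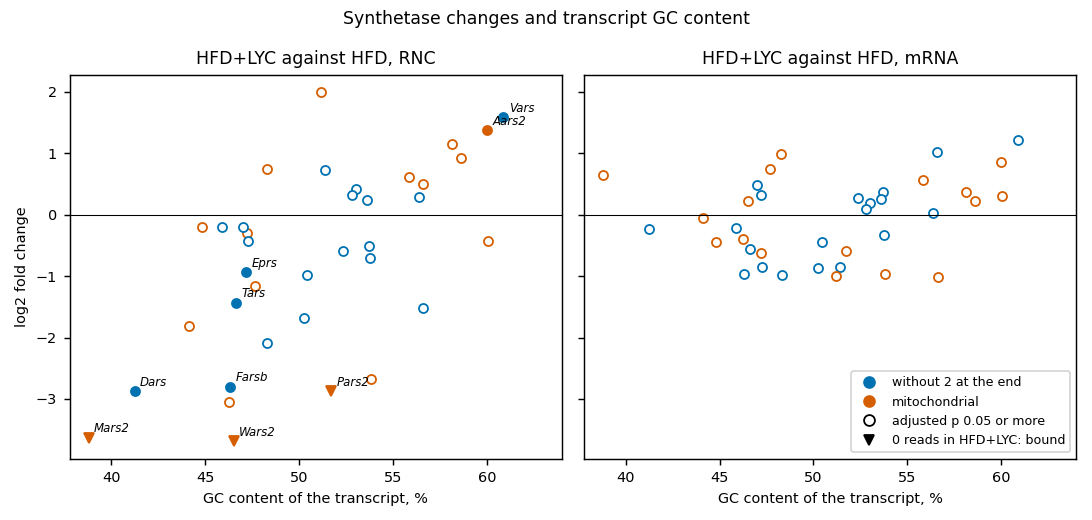
Log2 difference between HFD+LYC and HFD against the GC content of the transcript in percent, with 1 point per synthetase gene, for RNC and for mRNA. In the RNC panel Dars and Mars2 lie at low GC and low values, and Vars and Aars2 at high GC and high values.

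Genes around the synthetases were followed in lists. The scaffolds of the complex, Aimp1, Aimp2 and Eef1e1, had 0 of 3 called in any of the 12 comparisons, and their median difference between HFD+LYC and HFD RNC was -0.48, against -0.29 over all genes. Of 11 synthetase-related genes outside the rule, 1 rose and 3 fell there, where 9.34% of all genes rose and 17.4% fell. Aarsd1, which clears mischarged alanyl-tRNA, averaged 59.3 ± 0.54 CPM in HFD+LYC RNC and 19.4 ± 6.32 CPM in HFD RNC (SD, n = 3 each; log2 1.62, adjusted p = 0.00444, edgeR). Tarsl2, another threonyl-tRNA synthetase gene, had 0 reads in HFD+LYC RNC and 4.09 ± 1.85 CPM in HFD RNC (adjusted p = 0.00470, edgeR). Prorsd1 averaged 0.836 CPM in HFD+LYC RNC and 13.4 CPM in HFD RNC, and Dtd2 3.83 and 10.7 CPM in the same order (adjusted p = 0.00511 and 0.0464, edgeR).

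ATF4 and its target genes other than synthetases were higher in mRNA where called, and went both ways in RNC. In mRNA 2 of 25 tested rose in HFD+LYC against HFD livers and 0 fell, where 2.91% of all genes changed. Cebpb, a partner of ATF4 on the element shown above, averaged 523 ± 33.2 CPM in HFD+LYC mRNA and 66.7 ± 13.3 CPM in HFD mRNA (SD, n = 3 each; log2 2.97, adjusted p = 0.00347, edgeR). Ddit4, an inhibitor of mTORC1, averaged 33.4 CPM in HFD+LYC mRNA and 8.11 CPM in HFD mRNA (adjusted p = 0.0462, edgeR). In RNC 2 of 24 rose (Cebpb and Slc3a2) and 5 fell (Cth, Psph, Asns, Mthfd2 and Atf4), near the 9.34% and 17.4% of all genes that rose and fell. Atf4 itself averaged 52.5 ± 7.51 CPM in HFD+LYC RNC and 87.0 ± 18.4 CPM in HFD RNC (SD, n = 3 each; log2 -0.73, adjusted p = 0.0485, edgeR). Of the 5 synthetases with the ATF4 letters in their promoter, Tars was lower in RNC and the other 4 (Aars, Gars, Iars and Yars) were not called by edgeR against HFD, while limma-voom called Gars and Iars. Against control Ddit3, which overlaps Mars on the opposite strand, rose as well, to 36.9 CPM in HFD+LYC mRNA, against 12.8 CPM in control mRNA (adjusted p = 0.0466), and to 18.9 CPM in HFD+LYC RNC, against 4.02 CPM in control RNC (adjusted p = 0.0130; edgeR).

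Of 17 tested kinases and sensors of the integrated stress response, 3 rose in HFD+LYC against HFD RNC (Eif2ak2, Eif2b4 and Gcn1l1) and 2 fell (Eif2s1 and Rraga), with 0 called in mRNA. The counts of this and the next lists in RNC stand beside 9.34% of all genes that rose and 17.4% that fell. Of the 6 cytosolic elongation factors 1 rose (Eef1d) and 2 fell (Eef1a1 and Eef1b2), of 10 mitochondrial translation factors 1 fell (Mtrf1l), and of 11 genes of tRNA processing 2 rose (Trmt1 and Trmu) and 1 fell (Mto1). Of 14 tested genes of the interferon gamma response, among which Wars is known to be induced in mammals, 8 fell and 0 rose in HFD+LYC against HFD RNC. Wars itself had 12.4, 6.91 and 26.1 CPM in HFD+LYC RNC, against 19.2, 9.87 and 9.85 CPM in HFD RNC, and was not called. Between HFD and control livers 0 genes of any of these lists were called, in mRNA, in RNC or in the ratio.

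Marker genes were summed to describe the cell makeup of the libraries, in CPM of all reads without TMM scaling. The TMM factors, by which these sums were not divided, were 0.428, 1.15 and 0.836 in HFD+LYC RNC. In HFD and control RNC they were 1.07 to 1.34. The 10 hepatocyte markers, all detected, summed to 143655 to 194842 CPM in HFD+LYC RNC, against 86671 to 139113 CPM in HFD and 109370 to 129520 CPM in control RNC. The 12 Kupffer cell and macrophage markers, all detected, summed to 101 to 176 CPM in HFD+LYC RNC, against 368 to 753 CPM in HFD and 327 to 349 CPM in control RNC. Those of sinusoidal endothelial cells (8 of 8 detected) summed to 28.2 to 81.6 CPM in HFD+LYC RNC, against 152 to 193 CPM in HFD and 122 to 180 CPM in control RNC. Those of stellate cells summed to 18.6 to 84.9 CPM in HFD+LYC RNC (7 of 8 detected, Hgf at 0), against 202 to 276 CPM in HFD and 145 to 261 CPM in control RNC. In mRNA the sums did not all go the same way as in RNC. Endothelial markers summed to 396 to 759 CPM in HFD+LYC, 246 to 372 CPM in HFD and 189 to 280 CPM in control mRNA. Cholangiocyte markers, all 6 detected, summed to 32.6 to 48.0 CPM in HFD+LYC, 136 to 189 CPM in HFD and 133 to 158 CPM in control mRNA. Hepatocyte markers summed to 38117 to 88814 CPM in HFD+LYC, 57984 to 111948 CPM in HFD and 44873 to 112792 CPM in control mRNA, which overlap. The part of these cell types in the synthetase results was not tested.

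Some members overlap another gene on the opposite strand (Cars2, Ears2, Fars2, Farsb, Hars, Hars2, Iars2, Mars, Wars and Yars) and Aars overlaps Exosc6 on the same strand. These overlaps are of whole gene spans, introns included, and the bases shared by the transcripts were not measured. Without strand in the counting, only reads from stretches shared by opposite transcripts could not be told apart. The labels do not say whether strand was used.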

How the data were processed

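Total RNA (mRNA) and RNA of ribosome-nascent chain complexes (RNC) were sequenced from 9 livers. Per the labels, reads were mapped to RefSeq RNA references and expression was given as RPKM. The submitters' processing notes name bcl2fastq and mm10. Of the aligner and the use of strand the labels say nothing. The deposited tables hold a read count and an RPKM value per gene. Tests used the deposited counts, and RPKM in the text was computed from scaled counts and the listed length.

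Counts were tested with edgeR 4.0.16 in R 4.3.3 (quasi-likelihood, TMM scaling, filterByExpr with a minimum count of 10 and a minimum total of 15), in 9 mRNA, 9 RNC or all 18 libraries, with Benjamini-Hochberg adjustment over all genes and a threshold of 0.05. DESeq2 1.42.0, limma 3.58.1 (voom), other scaling, no filter, fits of the compared groups alone, replicate blocks and leaving out each replicate were the alternatives. The fits were run on simulated counts with the same dispersion for all genes and no loss of genes in any library. The low gene detection in HFD+LYC RNC was thus not covered by the simulation. Fold changes of genes with 0 reads in a group are bounds at 3 reads over the group, which cover counting error only.

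The RNC and mRNA libraries of 1 number were taken as a pair from the same liver, because their titles share the number and their deposited tables share a label, which the labels do not explain. The correlation of their deviations from the group means ran from -0.078 to 0.747 and was over 0.1 in 4 of 9 livers. The synthetases were chosen by gene name, and the members and lists were chosen with earlier results of these data known. Tests are given for called synthetases and the 2 smallest p in each direction, and for called genes of other lists.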

Additional observations from a re-analysis of the deposited data

Results flagged for a closer look

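For 8 of 37 synthetases the change between HFD+LYC and HFD livers differed between RNC and mRNA, by the test of that difference (edgeR, interaction of diet and library kind over 18 libraries). Over all 12872 genes 16.4% passed this test, so the synthetases were not far from the background. With the liver as a block, 5 remained, and Eprs, Kars and Pars2 were lost. The log2 differences of the ratios were -2.71 for Dars, -1.32 for Eprs, -2.59 for Farsa, -1.97 for Hars2 and 1.51 for Kars. For the genes with 0 reads in HFD+LYC RNC the fitted values, which depend on the prior count, were -8.26 for Mars2, -6.22 for Pars2 and -8.21 for Wars2.

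Against control 7 synthetases differed in this way, where 14.8% of all genes did. The values were -2.49 for Dars, -1.61 for Eprs, -2.74 for Farsa and -1.64 for Hars2, with fitted values of -9.03 for Mars2, -7.17 for Pars2 and -7.28 for Wars2. With the liver as a block, Hars2 and Pars2 were lost and Lars2 was gained. Both comparisons share the HFD+LYC libraries.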

How the results depend on the processing

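Counts of called synthetases depended on the test and on single libraries, and the cause was not tested. The share of all genes called under each alternative is not given beside these counts. They describe how the calls moved and are not results about the synthetases as a set. In mRNA, HFD+LYC against HFD gave 0 calls, 3 with DESeq2 and 3 with the replicate number as a block. Against control it gave 0, 2 with DESeq2, 2 with this block and 0 to 1 with 1 replicate left out. This block made calls of Farsa, Vars and, against HFD, Tars2. Across diets the samples share only a number, with correlations from -0.597 to 0.621 in mRNA (7 of 9 over 0.1) and from -0.123 to 0.457 in RNC (4 of 9). In RNC, HFD+LYC against HFD gave 9 calls, 15 with DESeq2, 14 with limma-voom, 4 with only the groups compared and 5 to 14 with 1 replicate left out (5 without HFD replicate 2 or 3, 14 without the third HFD+LYC replicate). Against control it gave 10, 16 with limma-voom and 6 to 14 with 1 left out (6 without control replicate 2 or 3). For the ratio, HFD+LYC against HFD gave 8, 5 without the filter on low counts, 5 with the liver as a replicate block, 4 with only the groups compared and 3 to 10 with 1 left out (3 without the third HFD replicate). Against control it gave 7, and 3 to 11 with 1 left out (3 without the third control, 11 without the third HFD+LYC replicate). RNC against mRNA gave 0 in control (4 with DESeq2, 12 with only the groups compared, 0 to 1 with 1 left out), 0 in HFD (1 with DESeq2, 1 with only the groups compared) and 17 in HFD+LYC livers (7 with only the groups compared, 12 to 18 with 1 left out). The sign turned for 2 genes, both between HFD and control: with 1 replicate left out, Iars in mRNA ranged from -0.057 (without the third HFD replicate) to 0.59, and Lars2 in RNC from -1.22 (without the first HFD replicate) to 1.75. Low reads limit Mars2, Pars2 and Wars2 in RNC.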
